A study of Mus musculus with 144 samples.

Results

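Serpins are a large family of proteins that share one fold and, for the most part, block serine or cysteine proteases. The genes described here were all protein-coding mouse genes whose symbol starts with Serpin, without pseudogenes, by the RefSeq gene type. GENCODE lists 1 of them, Serpinb10, as a polymorphic pseudogene. The rule gave 63 of the 55359 genes in the count files, and 62 of them are described, 24 of clade A (Serpina), 28 of clade B (Serpinb) and 10 of the other clades (Serpinc to Serpini). Of these 62, 38 had a mean of 1 CPM (counts scaled to a common library size) or more in at least 1 group of libraries and are reported, 19 of clade A, 12 of clade B and 7 of the other clades. Just inside this limit were Serpina3i, Serpinb1b and Serpina3g, with highest group means of 1.48, 2.55 and 2.74 CPM. Just outside it were Serpinb1c, Serpinb6c and Serpini1, at 0.894, 0.793 and 0.558 CPM. Of the 24 genes under the limit, 7 (Serpinb10, Serpinb13, Serpinb3b, Serpinb3c, Serpinb3d, Serpinb7 and Serpinb9h) had no count in any library.

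RNA-Seq was performed on primary hepatocytes of male C57BL/6NCrl mice aged 28 days, either labelled WT or labelled PkmΔDRE, a homozygous CRISPR line without the dioxin response element (DRE) in an intron of the pyruvate kinase gene Pkm. All cells were plated on collagen, given serum for attachment and then kept without serum in medium with dexamethasone and insulin, with DMSO vehicle or with 10 nM TCDD, the dioxin that activates the aryl hydrocarbon receptor (AhR). Cells were harvested at 9 times, 5 of them on the day of plating (2, 4, 8, 12 and 24 h) and then daily up to 120 h, with 4 libraries in each of the 36 groups. The labels do not say which libraries came from separate animals or isolations, so p-values measure only the spread between these libraries, which may be technical. Each library held 13588848 to 30719161 read pairs on genes, with a median of 18011825.

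Hepatocytes are the main source of the serpins of blood plasma. Clade A holds the secreted antitrypsin genes Serpina1a to Serpina1e, the antichymotrypsin-like Serpina3 genes, and carriers of hormones such as Serpina6 (corticosteroid-binding globulin) and Serpina7 (thyroxine-binding globulin). Clade B proteins mostly stay inside the cell, where Serpinb9 and its relatives block granzyme-like proteases. Among the other clades, Serpinc1 (antithrombin), Serpind1 (heparin cofactor II), Serpinf2 (antiplasmin) and Serping1 (C1 inhibitor) set limits on clotting, fibrinolysis and complement, whereas Serpinh1 is a collagen chaperone with no known protease target.

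Several libraries did not follow their labels, which touches the results below. Each library was set against the mean of the other libraries of its label at each time, vehicle and TCDD together. The library labelled PkmΔDRE vehicle 4 h replicate 4 was most like the 96 h libraries. Its Spearman rho was 0.977 there, against 0.820 with those of its own time. PkmΔDRE vehicle 96 h replicate 4 was most like the 4 h libraries (0.979 against 0.818). Cyp1a1, the standard AhR target, stood at 3290 and 1720 CPM in 2 WT vehicle libraries (48 h replicate 1 and 96 h replicate 3), and at 29.2 and 1.15 CPM in 2 WT TCDD libraries (72 h replicate 4 and 2 h replicate 4). WT replicate 3 stood apart in Pkm at 48 and 72 h, at 1190 and 2130 CPM with vehicle and 747 and 1680 with TCDD, where the other libraries of these groups held 151.3 to 607. Pkm went against the genotype labels: at 24 h, the WT-labelled libraries gave 37.1, 35.4, 190.9 and 86.9 CPM with vehicle and 41.7, 46.1, 132.9 and 111.1 with TCDD, and the PkmΔDRE-labelled ones 296, 115.5, 73.5 and 159.6, then 473, 278, 491 and 473. Pkm was not called higher with TCDD at any time under either label and was called lower at 96 h under the label WT (-0.73 ± 0.14), but its log2 fold change at 12 h was 1.68 ± 0.26 (SE) under the label PkmΔDRE and 0.17 ± 0.38 under the label WT. The genotype names below are therefore those of the labels. No library was moved to another group. Results are also given without some of these libraries for TCDD at 96 h, for the total of PkmΔDRE calls and for the comparison of the labels. Values with TCDD at 2, 48 and 72 h under the label WT, and at 4 h under the label PkmΔDRE, are given with them only.

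The promoters of 2 clusters and of 1 single gene are shown. Serpina1a to Serpina1e all fell in culture under both labels, though by different amounts. Serpinb9c, Serpinb9e, Serpinb9f and Serpinb9g were each called higher with TCDD at 1 time, not all at the same time or label. Serpinf2 was called lower with TCDD at 8 and 24 h under the label WT. Serpina1c, Serpina1e and Serping1 were also called lower at 8 and at 96 h under the label WT, and Serping1 had no matched window. RefSeq promoter windows (GRCm38.p6, from 250 bases before to 50 after the start) were matched for 31 of the 38 genes. The letters GTTAAT, which are part of the binding motif of the liver factor HNF1, were searched on both strands. They occurred in 7.1% of all 32851 windows and in 25% of the 36 serpin windows. Of these 9 serpin windows, 5 were those of Serpina1a to Serpina1e, which are near copies, so the 25% counts a like stretch several times. The others were of Serpina3c, Serpinb8 and Serpina7, and Serpina7 rose in culture. The antitrypsin stretches below lie on the minus strand of chromosome 12, with GTTAAT in capitals from 16 to 78 bases before the start. They share 93% to 97.7% of their 86 bases with that of Serpina1a.
Serpina1a, chr12:103863625-103863710: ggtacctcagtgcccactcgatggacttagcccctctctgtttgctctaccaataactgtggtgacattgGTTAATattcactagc
Serpina1b, chr12:103738200-103738285: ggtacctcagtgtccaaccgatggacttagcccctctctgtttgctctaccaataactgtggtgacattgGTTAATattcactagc
Serpina1c, chr12:103904962-103905047: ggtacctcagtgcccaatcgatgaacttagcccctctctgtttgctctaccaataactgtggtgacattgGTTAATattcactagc
Serpina1d, chr12:103773634-103773719: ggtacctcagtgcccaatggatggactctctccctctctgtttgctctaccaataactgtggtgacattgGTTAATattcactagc
Serpina1e, chr12:103956960-103957045: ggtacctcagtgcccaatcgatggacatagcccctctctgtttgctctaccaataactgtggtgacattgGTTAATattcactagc

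The second cluster holds the Serpinb9 genes of chromosome 13 that were called with TCDD. The letters TGACGT, part of the cyclic AMP response element, were found on either strand in 7.51% of all windows and in 5 of the 36 serpin windows, those of Serpinb9c to Serpinb9g. The stretches are printed with TGACGT in capitals, 42 to 65 bases before the start. Those of Serpinb9e, Serpinb9f and Serpinb9g, on the plus strand, share 64% to 67.4% of their bases with Serpinb9c, on the minus strand.
Serpinb9c, chr13:33159771-33159856: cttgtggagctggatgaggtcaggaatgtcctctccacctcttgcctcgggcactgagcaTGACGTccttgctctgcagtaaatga
Serpinb9e, chr13:33249498-33249583: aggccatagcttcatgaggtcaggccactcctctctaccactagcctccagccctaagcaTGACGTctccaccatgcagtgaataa
Serpinb9f, chr13:33323952-33324037: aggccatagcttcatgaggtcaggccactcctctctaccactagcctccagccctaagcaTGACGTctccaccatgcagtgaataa
Serpinb9g, chr13:33484676-33484761: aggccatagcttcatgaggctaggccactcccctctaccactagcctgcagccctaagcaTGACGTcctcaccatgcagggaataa

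The DRE core GCGTG was found on either strand in 32.4% of all windows and in 13.9% of the serpin windows (Serpina12, Serpina3f, Serpinb6a, Serpinb9c and Serpinf2). Of the 15 windows of serpins called with TCDD, 2 held it (13.3%), those of Serpinb9c and Serpinf2. In Serpinf2, on the minus strand of chromosome 11, it lies 23 bases before the start and is in capitals. Such matches describe the letters of these windows only.
Serpinf2, chr11:75439502-75439584: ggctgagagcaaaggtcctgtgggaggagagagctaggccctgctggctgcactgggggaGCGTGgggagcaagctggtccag

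In freshly plated hepatocytes, serpins took a large share of the RNA, and this share shrank as the culture aged. With vehicle at 2 h, 6.55, 7.32, 4.00 and 5.27% of the read pairs on genes lay on these 62 serpins in the WT libraries, and 6.67, 5.38, 6.33 and 6.01% in the PkmΔDRE libraries. At 24 h the means were 2.34% ± 0.498 and 2.24% ± 0.808 (SD, n = 4), and at 120 h they were 0.366% ± 0.130 and 0.345% ± 0.0764. The groups at 2, 24 and 120 h did not overlap under either label. The PkmΔDRE vehicle libraries at 4 h held 6.12, 5.02, 7.08 and 0.433%, and those at 96 h 0.547, 0.440, 0.503 and 6.93%. In both sets replicate 4, named above, was the one that stood apart.

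**Figure D1:**
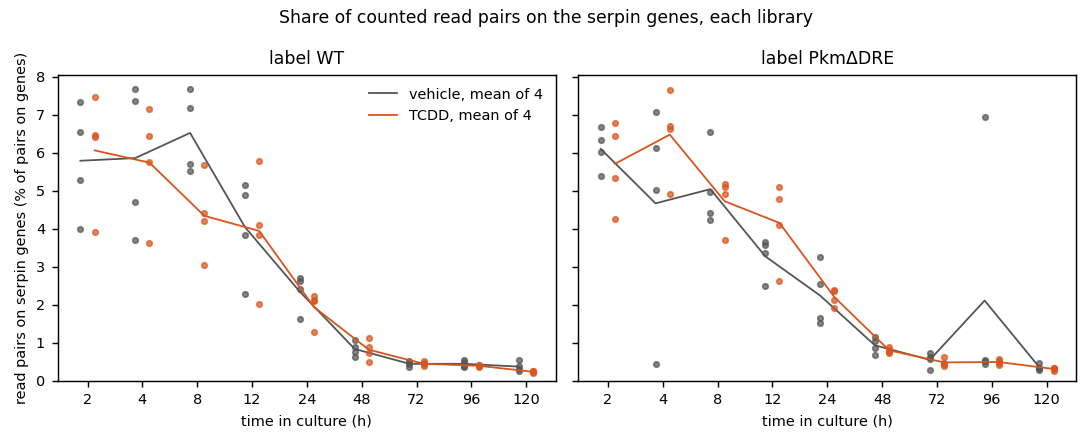
Share of the read pairs on genes that lay on the 62 serpin genes (%, vertical axis) against time in culture (h, evenly spaced) for libraries labelled WT (left) and PkmΔDRE (right); points are libraries, lines the means of 4, grey vehicle and orange TCDD. The vehicle means fall from 5.79% (WT) and 6.10% (PkmΔDRE) at 2 h to 0.366% and 0.345% at 120 h, and the PkmΔDRE vehicle libraries at 0.433% (4 h) and 6.93% (96 h) stand apart from their groups.

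The makeup of this share changed as well. At 2 h in WT vehicle libraries, Serpina3k took 32.8% ± 1.59 of the serpin pairs, Serpina1e 23.4% ± 8.35 and Serpina1b 13% ± 2.65, and clade A as a whole 90.3% ± 2.42 (SD, n = 4). Clade B took 0.042% ± 0.0174. By 120 h clade A had 60.9% ± 6.88, clade B 17.6% ± 8.64 and the other clades 21.6% ± 1.95. Serpina1b alone then held 35.5% ± 11.3, Serpina3k 6.14% ± 8.32 and Serpinb6a 8.08% ± 3.29. The PkmΔDRE libraries at 120 h gave 64.4% ± 2.52, 13.4% ± 6.02 and 22.2% ± 3.82 for the 3 classes, with 45.8% ± 1.69 on Serpina1b. Per kilobase of exon, which allows genes to be compared, the order of the most abundant genes changed with time. At 2 h in WT vehicle libraries, Serpina3k had a mean level of 14200 CPM per kb, Serpina1e 13700 and Serpina1b 4580, whereas at 120 h Serpina1b stood at 370 CPM per kb, Serpina3k at 115.6 and Serpina1e at 49.2. The PkmΔDRE libraries gave 15500, 14200 and 5500 CPM per kb for Serpina3k, Serpina1e and Serpina1b at 2 h, and at 120 h Serpina1b stood at 477 CPM per kb, Serpina1e at 39.3 and Serpina3k at 20.8. Replicate 2 made up most of the Serpina3k mean at 120 h in WT libraries.

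Of the serpins tested, most secreted ones fell over the 5 days in culture, and most of clade B rose. From 2 to 120 h with vehicle, 22 serpins fell and 13 rose in the WT libraries, of 39 tested (edgeR, called where the fold change was 1.5 or more and the Benjamini-Hochberg adjusted p was under 0.05). Over all genes tested, 26.9% were called lower and 34.2% higher. In the PkmΔDRE libraries 22 fell and 7 rose, of 31 tested, where 27.9% and 33.2% of all genes were called. The median log2 fold change of the serpins tested was -3.42 in WT and -4.23 in PkmΔDRE libraries, beside 0.16 and 0.16 for all genes tested. The 23 and 31 members not tested had too few counts, and a gene that passed the filter only through the group where it was high had to differ, so these counts describe the members tested. The same direction was called under both labels for 21 serpins that fell and 7 that rose.

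Serpina3k, an abundant antichymotrypsin-like gene, stood at 32100, 39100, 18300 and 27200 CPM in the WT vehicle libraries at 2 h, at 7750, 8230, 5620 and 8540 at 24 h, and at 49.9, 813, 19 and 69.3 at 120 h. Under the label PkmΔDRE it was 37000, 25500, 33300 and 31600 CPM at 2 h and 45.1, 39.8, 29.5 and 56.8 at 120 h. Every 120 h library lay far below every 2 h library, where 26.9% (WT) and 27.9% (PkmΔDRE) of all genes were called lower. The share of all genes so separated was not counted. WT replicate 2 at 120 h was over 10 times the other WT libraries of that time. The log2 fold change was -7.14 ± 1.24 (SE, edgeR adjusted p 0.000563) in WT and -9.74 ± 0.40 in PkmΔDRE libraries, and -9.50 ± 0.67 in WT libraries without that replicate.

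The antitrypsin genes fell by different amounts. Serpina1e was 28300, 37300, 8490 and 14600 CPM in WT vehicle libraries at 2 h and 32.2, 223, 13.5 and 49.6 at 120 h (log2 fold change -8.32 ± 1.07, or -9.65 ± 0.86 without replicate 2 of 120 h). Under the label PkmΔDRE it was 27700, 16400, 25300 and 22800, then 156.6, 40.2, 18 and 39.7 (-8.72 ± 0.76). Its near copy Serpina1b kept far more of its RNA. It was 10300, 13300, 9890 and 10700 CPM at 2 h in WT and 881, 840, 638 and 1210 at 120 h (-3.83 ± 0.27), and 15200, 10100, 14500 and 13300, then 1570, 1050, 800 and 1190, in PkmΔDRE libraries (-3.73 ± 0.31). At 2 h Serpina1e had the higher mean, whereas at 120 h every library had more Serpina1b than Serpina1e.

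The other antitrypsin genes lay between them. Serpina1d fell from 5960, 7490, 5870 and 6750 to 32.4, 100.2, 25.1 and 38.8 CPM in WT (-7.25 ± 0.52) and from 9860, 5790, 8410 and 7850 to 50.7, 48.7, 29.8 and 44.5 in PkmΔDRE libraries (-7.72 ± 0.36). Serpina1a fell from 4050, 4890, 3440 and 3990 to 149.7, 171.5, 112.6 and 274 CPM in WT (-4.74 ± 0.32) and from 5950, 3680, 5590 and 5040 to 298, 194.4, 114.5 and 144.4 in PkmΔDRE libraries (-4.96 ± 0.38). Serpina1c fell by 4.27 and 5.03 on the log2 scale. These genes are near copies: of all 150-base windows of their transcripts, 50.5% (Serpina1c), 35.1% (Serpina1a), 23.3% (Serpina1d), 11.9% (Serpina1b) and 7.36% (Serpina1e) also occur exactly in another gene. Only uniquely mapped pairs were counted, so how the family's RNA divides among Serpina1a, Serpina1c and Serpina1d is uncertain.

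Serpina6, which carries glucocorticoids in plasma, fell most among the genes called under both labels. It was 80.6, 106.1, 281 and 166.1 CPM in WT vehicle libraries at 2 h, 4.55, 3.12, 7.90 and 8.83 at 24 h, and 0.0345, 0.468, 0.148 and 0.128 at 120 h (log2 fold change -9.90 ± 0.63 from 2 to 120 h). Under the label PkmΔDRE it went from 158.7, 103.02, 175.3 and 148.5 CPM to 0.0484, 0, 0.0801 and 0, which is 3 read pairs in all 4 libraries. The ratio of 2 h to 120 h was 4720 there, with a 95% interval from counting error alone of 1610 to 22900. Serpina3f, a Serpina3 gene of low level, fell from 33.5, 37.6, 14.1 and 15.5 to 0.0345, 0.0850, 0.407 and 0 CPM in WT (-7.76 ± 0.74) and from 19, 25.7, 35.8 and 44.6 to 0.533, 0.141, 0.0801 and 0 in PkmΔDRE libraries (-7.57 ± 0.69). Unlike Serpina6, it had reached this floor by 24 h, at 0 to 0.627 CPM in all 8 vehicle libraries.

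Serpina3n, an acute-phase gene, was 3660, 4730, 3030 and 3810 CPM in WT vehicle libraries at 2 h and 25, 254, 8.33 and 26.6 at 120 h (-5.80 ± 1.03), and 4640, 3170, 4450 and 3420, then 34.9, 17.2, 10.6 and 21.8, in PkmΔDRE libraries (-7.74 ± 0.45). Serpina3m, of the same cluster, went from 1760, 2050, 1930 and 2280 to 6.21, 77.9, 2.63 and 10.1 CPM in WT (-6.57 ± 1.05) and from 2680, 2000, 2850 and 2130 to 10.7, 6.79, 5.21 and 7.17 in PkmΔDRE libraries (-8.54 ± 0.36). In both genes WT replicate 2 at 120 h was again the high one. Across clade A, 17 of 19 members tested fell and 1 rose in WT libraries, and 16 of 18 fell and 1 rose in PkmΔDRE libraries. Serpina5 (protein C inhibitor) was called in neither, at 0.94 ± 0.98 and -0.02 ± 0.52.

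The clotting and complement inhibitors fell with clade A. Serpinc1, the main inhibitor of thrombin, was 3120, 3930, 3270 and 3720 CPM in WT vehicle libraries at 2 h and 12.8, 180.6, 6.29 and 25.1 at 120 h (log2 fold change -6.16 ± 1.04), and 4920, 2940, 4690 and 4130, then 19, 16.3, 8.01 and 9.15, in PkmΔDRE libraries (-8.51 ± 0.44). No 120 h library came near the 2 h level. Serping1, Serpinf2 and Serpinf1 fell less, by 3.49, 3.37 and 3.23 on the log2 scale in WT and by 3.58, 3.52 and 3.93 in PkmΔDRE libraries. At 120 h Serping1 still stood at 137.4, 285, 88.8 and 115.6 CPM in WT and at 302, 133.1, 109.3 and 190.4 in PkmΔDRE libraries. Serpind1 fell early: it was 621 ± 87.6 CPM (SD, n = 4) in WT vehicle libraries at 2 h and 64.2 ± 7.98 at 24 h, and 723 ± 161 and 24.4 ± 10.9 in PkmΔDRE libraries.

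**Figure D2:**
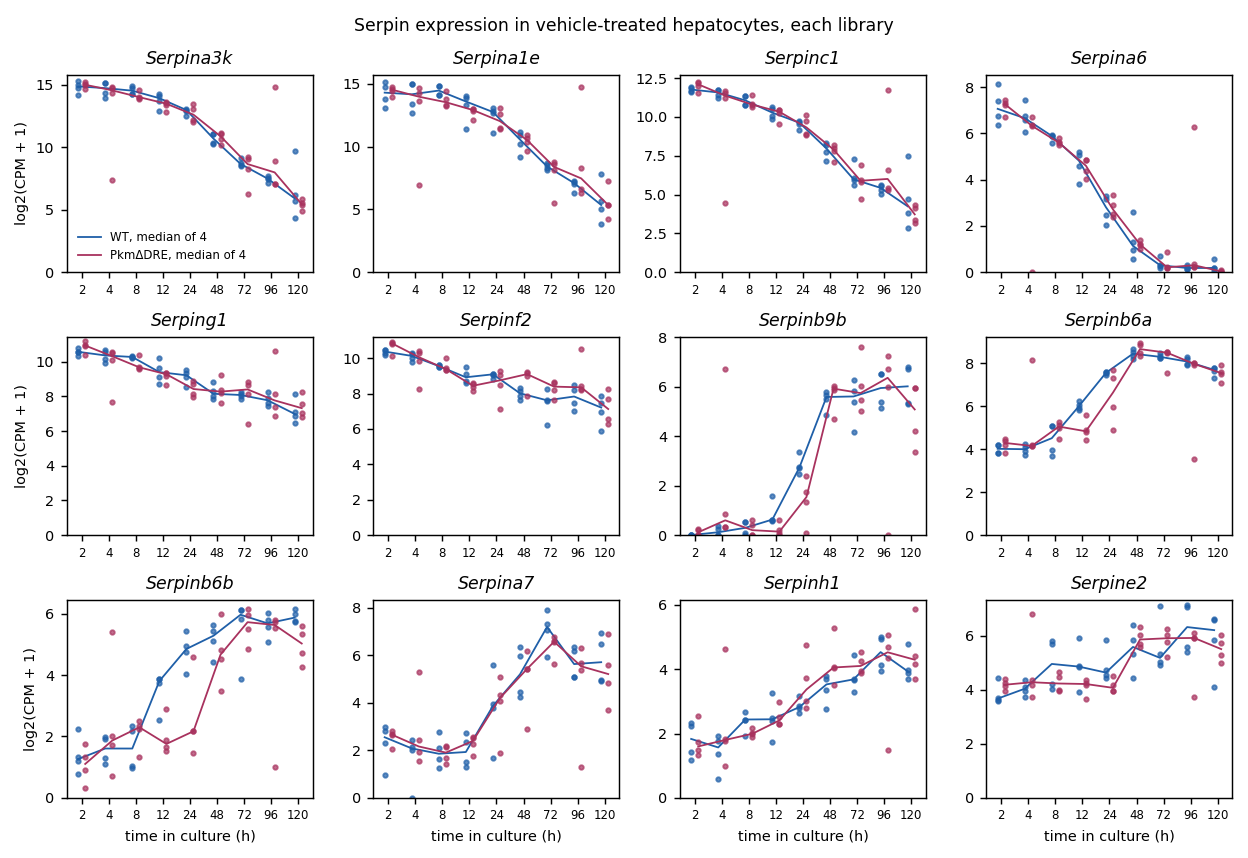
Level of 12 serpins, as log2(CPM + 1), in the vehicle libraries against time in culture (h, evenly spaced); points are libraries, lines the medians of 4, blue the label WT and red the label PkmΔDRE. Serpina3k, Serpina1e, Serpinc1 and Serpina6 fall in both, Serpinb9b climbs from 0 CPM at 2 h in WT to at least 38.2 CPM in each library at 120 h, and single PkmΔDRE points at 4 and 96 h lie at the level of the other time.

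Of the intracellular serpins of clade B, 4 rose under both labels, namely Serpinb6a, Serpinb6b, Serpinb9 and Serpinb9b. Serpinb9b, of the granzyme-inhibitor group, had no read pair in the 4 WT vehicle libraries at 2 h and stood at 5.71, 5.62, 9.19 and 4.62 CPM at 24 h, at 28.1, 53.9, 44.1 and 50.3 at 48 h, and at 39.1, 103.9, 112.03 and 38.2 at 120 h. Against 3 counts per library as the limit at 2 h, this was at least 267-fold higher at 120 h. In PkmΔDRE libraries it was 0.171, 0, 0 and 0.167 CPM at 2 h, 0.0544, 1.55, 4.20 and 2.31 at 24 h, and 9.39, 17.7, 60.5 and 61 at 120 h (log2 fold change 8.58 ± 0.93).

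Serpinb6a, a broad inhibitor of intracellular serine proteases, reached the highest level of clade B. It was 17.4, 13.3, 13.3 and 17.6 CPM in WT vehicle libraries at 2 h, 329, 372, 401 and 292 at 48 h and 158.4, 217, 220 and 197.1 at 120 h (log2 fold change 3.48 ± 0.18 from 2 to 120 h). The PkmΔDRE libraries gave 20.2, 17.2, 13 and 21.3, then 355, 326, 492 and 463, and 194.6, 134.5, 178.6 and 246 CPM (3.20 ± 0.24). Its neighbour Serpinb6b went from 1.30, 3.75, 1.51 and 0.714 to 61.9, 53.6, 70.1 and 52 CPM in WT (4.83 ± 0.40) and from 0.856, 2.40, 1.49 and 0.251 to 18.3, 39.7, 47.6 and 25.2 in PkmΔDRE libraries (4.51 ± 0.56). In all 3 genes every 120 h library lay above every 2 h library, as in 40.2% of all genes tested in WT and 33.6% in PkmΔDRE libraries.

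In clade B, 10 of the 13 members tested rose and none fell in WT libraries, with a median log2 fold change of 4.38, or 3.56 with genes at 0 counts set to their bound. The other 15 were not tested. In PkmΔDRE libraries 4 of 6 rose, with a median log2 fold change of 2.54 for the members tested. There Serpinb1a, an inhibitor of neutrophil proteases, fell by 2.58 on the log2 scale from a mean of 1.93 CPM. Serpinb9 itself, the granzyme B inhibitor, rose by 2.66 ± 0.30 and 1.88 ± 0.32. Serpinb9e had no count in the PkmΔDRE libraries at 2 h and was at least 6.58-fold higher at 120 h. Serpinb9g had none in WT at 2 h and was at least 11.4-fold higher.

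Serpina7, Serpinh1 and Serpine2 rose although they are not of clade B. Serpina7 was 0.929, 6.03, 6.85 and 3.89 CPM in WT vehicle libraries at 2 h and 87.4, 123.1, 28.9 and 30.1 at 120 h (log2 fold change 3.73 ± 0.63), and 3.17, 5.27, 5.40 and 5.94, then 46.8, 117.6, 27.8 and 12, in PkmΔDRE libraries (3.19 ± 0.61). Thus the thyroxine carrier rose while the glucocorticoid carrier all but vanished. Serpinh1 rose by 2.45 ± 0.42 and 3.15 ± 0.57 on the log2 scale, and Serpine2 (protease nexin 1) by 2.04 ± 0.48 and 1.22 ± 0.26.

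Serpins changed both on the first day and later. The median log2 fold change of the clade A members tested was -2.4 from 2 to 24 h and -2.4 from 24 to 120 h in WT. It was -2.5 and -3.6 in PkmΔDRE libraries. From 2 to 24 h with vehicle, 21 serpins fell and 11 rose in WT libraries, of 36 tested (24.4% and 23.5% of all genes), and 20 fell and 7 rose in PkmΔDRE libraries, of 32 tested (13.5% and 17.3%). From 24 to 120 h, 16 fell and 6 rose in WT, of 36 tested (20.8% and 24.6%), and 14 fell and 2 rose in PkmΔDRE libraries, of 31 tested (7.23% and 7.74%). These comparisons share libraries with each other and with that of 2 and 120 h. Under both labels, 11 serpins fell in the later days, namely Serpina1a to Serpina1e, Serpina3k, Serpina3m, Serpina3n, Serpina6, Serpina11 and Serpinc1, and 1 rose, Serpinb9b.

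Other cell markers moved with these changes. The summed level of 7 hepatocyte markers fell from 118000 to 162000 CPM at 2 h to 3360 to 17300 at 120 h in WT vehicle libraries, and 6 of the 7 were called lower under each label. From 2 to 120 h in WT, the macrophage list went from 166.6 to 273 CPM to 15.8 to 65.2, the endothelial list from 273 to 457 to 35.5 to 89.1, the cholangiocyte list from 34.2 to 132.5 to 140.3 to 193.1, and the list of stellate cells or fibroblasts from 6.5 to 14.1 to 20.4 to 186, and 4 of 6 stellate cell or fibroblast markers tested were called higher under each label. Of the neutrophil markers, Ly6g and Mpo were at 0 in these libraries. In bulk RNA, fewer cells of a type and less RNA per cell cannot be told apart, and the part of these cells in the serpin changes was not tested. With library size alone in place of TMM scaling, the median log2 fold change of all genes from 2 to 120 h shifted by 1.25 in WT and 1.34 in PkmΔDRE libraries, so folds over time are relative to that choice.

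With TCDD, serpins were called 17 times under the label WT and 3 times under the label PkmΔDRE, over the 9 times. The largest group was lower, at 8 h under the label WT. There 12 of 31 tested were called lower and none higher, and of all genes 13.6% were called lower and 23.8% higher. The serpin share of the read pairs was 7.17, 7.68, 5.52 and 5.70% with vehicle and 4.21, 5.66, 3.05 and 4.42% with TCDD. The log2 fold changes of the 12 ran from -0.59 to -0.90, and the median of all 31 was -0.59, beside 0.00 for all genes. They were 9 secreted clade A genes and the plasma inhibitors Serpinc1, Serpinf2 and Serping1. At the same time under the label PkmΔDRE no serpin was called (0.106% of all genes were called), and the serpin shares were 4.41, 4.23, 4.97 and 6.54% with vehicle and 5.09, 3.71, 4.90 and 5.18% with TCDD.

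The lowest adjusted p-values among the 12 were those of 2 inhibitors of plasma cascades. Serpinf2, which blocks plasmin, was 785, 773, 727 and 732 CPM with vehicle and 471, 536, 355 and 485 with TCDD (log2 fold change -0.74 ± 0.15, adjusted p 0.00224). Serping1, which blocks the first complement proteases, was 1240, 1270, 1210 and 1240, then 789, 851, 587 and 932 (-0.68 ± 0.15, adjusted p 0.00409). In both genes all TCDD libraries lay below all vehicle libraries, as in 18.2% of all genes tested. Serpinc1 was 2610, 2610, 1720 and 1770, then 1540, 1740, 1250 and 1390 (-0.59 ± 0.19, adjusted p 0.0223), with 1 overlap between the groups.

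Among the clade A genes, Serpina10, which blocks clotting factors with protein Z, was 288, 279, 298 and 297 CPM with vehicle and 221, 166.8, 91.6 and 216 with TCDD (-0.77 ± 0.22). Serpina3k was 27500, 29700, 19700 and 19800, then 19100, 18000, 10300 and 14600 (-0.67 ± 0.23). Serpina3n was 3780, 3940, 3140 and 2990, then 2270, 2600, 1620 and 2510 (-0.65 ± 0.18). In these 3 genes the groups did not overlap, and TCDD replicate 3 was the lowest library.

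The largest folds among the 12 were those of the antitrypsin genes Serpina1e and Serpina1c. Serpina1e was 28700, 30100, 18000 and 18100 CPM with vehicle and 15300, 18000, 5140 and 13600 with TCDD (-0.90 ± 0.33, adjusted p 0.0413). Serpina1a was 3680, 3880, 2600 and 2670, then 2350, 2330, 1350 and 1890 (-0.73 ± 0.21). Serpina1b was 10100, 10600, 5950 and 5850, then 5630, 6060, 3630 and 4280 (-0.77 ± 0.25), where the groups overlapped. The groups also overlapped for Serpina1c (-0.84 ± 0.27), Serpina1d (-0.70 ± 0.25) and Serpina11 (-0.78 ± 0.24), so that 7 of the 12 genes had no overlap, beside 81.2% of all genes called lower. Serpina1c was 697, 600, 488 and 408 with vehicle and 530, 285, 206 and 232 with TCDD. Serpina1d was 5750, 5970, 3250 and 3180, then 3210, 3550, 2300 and 2390, and Serpina11 45.4, 53.7, 47.5 and 34.7, then 37.8, 29.4, 16.3 and 24.9, a gene with 29.9% of its windows shared with Gm28577. In most of these genes vehicle replicates 1 and 2 were higher than replicates 3 and 4.

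**Figure D3:**
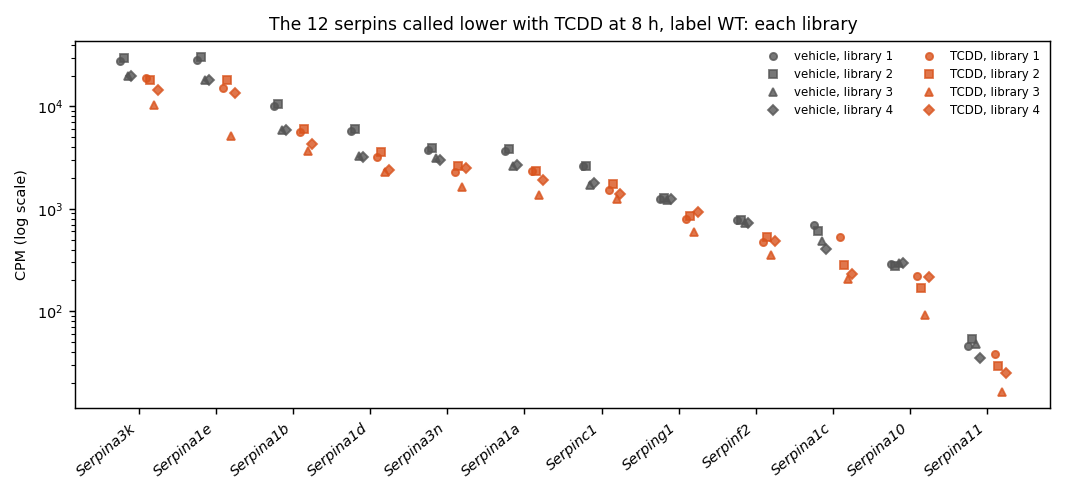
CPM (log scale) of the 12 serpins called lower with TCDD at 8 h under the label WT, each library as a point with a shape for its number, grey vehicle and orange TCDD. TCDD replicate 3 is the lowest library in each gene, as in Serpina1e at 5140 CPM, and the groups do not overlap in 7 of the 12.

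These calls rest on few libraries. TCDD replicate 1 had the fewest read pairs on genes of all libraries (13588848), with 48.0% of its pairs on no gene and 23.6% unmapped, and without it 12 serpins were called lower as well. Without TCDD replicate 3 only Serpinf2 and Serpina11 were called lower, and without vehicle replicate 2 the number was 4. It was also 4 with library size alone, which shifted the median of all genes at 8 h by 0.16 on the log2 scale. These 4 were Serpina10, Serpina11, Serpina1b and Serpina1c, so Serpinf2 and Serping1 were not called there. In 1 fit of all groups Serping1 was called and Serpinf2 was not. Other markers moved at this point: of 7 hepatocyte markers, beside the shares of all genes given above, 3 were called lower (Apoa1, Ttr and Asgr1) and 2 higher (Apob and Cps1), and 4 of 7 macrophage markers were lower, with a summed level of 159.5 to 197.9 CPM with vehicle and 63.3 to 119.3 with TCDD. Their part in the serpin values was not tested.

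In the Serpinb9 cluster, Serpinb9c, Serpinb9e, Serpinb9f and Serpinb9g were each called higher with TCDD at 1 time. At 72 h under the label PkmΔDRE, Serpinb9f was 0.910, 2.52, 1.12 and 1.02 CPM with vehicle and 6.80, 5.01, 7.88 and 8.93 with TCDD (log2 fold change 2.32 ± 0.40, adjusted p 0.0148), and Serpinb9c was 1.78, 2.08, 1.22 and 2.32, then 6.07, 5.56, 4.60 and 7.97 (1.67 ± 0.33, adjusted p 0.0304). Of all genes, 0.808% were called higher there. At 48 h Serpinb9e was 0.103, 0.480, 0.633 and 0.661, then 3.32, 3.31, 3.60 and 5.00 (2.93 ± 0.51, adjusted p 0.0442; 0.334% of all genes). In these 3 cases the groups did not overlap, and all TCDD libraries lay above all vehicle libraries in 3.28% of all genes tested at 48 h and 3.95% at 72 h. Serpinb9g was called at 96 h under the label WT, at 0.886, 1.18, 2.46 and 2.09 with vehicle and 1.91, 3.72, 5.77 and 3.45 with TCDD (1.21 ± 0.38, adjusted p 0.0288; 10.1% of all genes), where they did. PkmΔDRE vehicle 72 h replicate 1 was nearer the 120 h libraries (Spearman rho 0.9785, against 0.9603 for its own time), less clearly than the libraries named above. Without it, Serpinb9c, Serpinb9e and Serpinb9f were called higher at 72 h, and Serpina1b, Serpina1c, Serpinf2 and Serping1 lower.

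The members that were not called differed in sign. Serpinb9b, which rose most in culture, had a negative log2 fold change with TCDD at all 5 times tested under each label, from -1.12 to -0.27 in WT and from -1.51 to -0.11 in PkmΔDRE libraries. Serpinb9 was negative at 7 of 9 times in WT and 8 of 9 in PkmΔDRE libraries, and Serpinb9d positive at all 6 and all 5 times tested. At 72 h under the label PkmΔDRE, Serpinb9e was 2.12, 3.45, 0.925 and 0.290 CPM with vehicle and 11.7, 6.77, 7.42 and 6.67 with TCDD (2.21 ± 0.58, adjusted p 0.124), and Serpinb9d was 0.737, 2.02, 0.535 and 0.677, then 5.57, 2.42, 2.63 and 2.29. Under the label WT at 48 h Serpinb9f was 4.00, 2.22, 3.03 and 2.59, then 8.39, 6.94, 5.85 and 7.52 (1.31 ± 0.29, adjusted p 0.987). All TCDD libraries again lay above all vehicle libraries in each, as in 0.664% of all genes in WT at 48 h. At 96 h under the label WT, leaving out vehicle replicate 3, the library with Cyp1a1 at 1720 CPM, also gave calls for Serpinb9e (1.93 ± 0.58, adjusted p 0.0356), Serpinb9f (2.04 ± 0.62, adjusted p 0.0372) and, outside the cluster, Serpina3m (0.75 ± 0.25, adjusted p 0.0452). The levels are low, and 38.6% of the windows of Serpinb9f, 30.9% of Serpinb9g, 13.6% of Serpinb9c and 2.03% of Serpinb9e are shared with other genes. Of 8 fits that each left out 1 library, the calls of Serpinb9e, Serpinb9f, Serpinb9c and Serpinb9g were kept in 2, 4, 1 and 3.

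**Figure D4:**
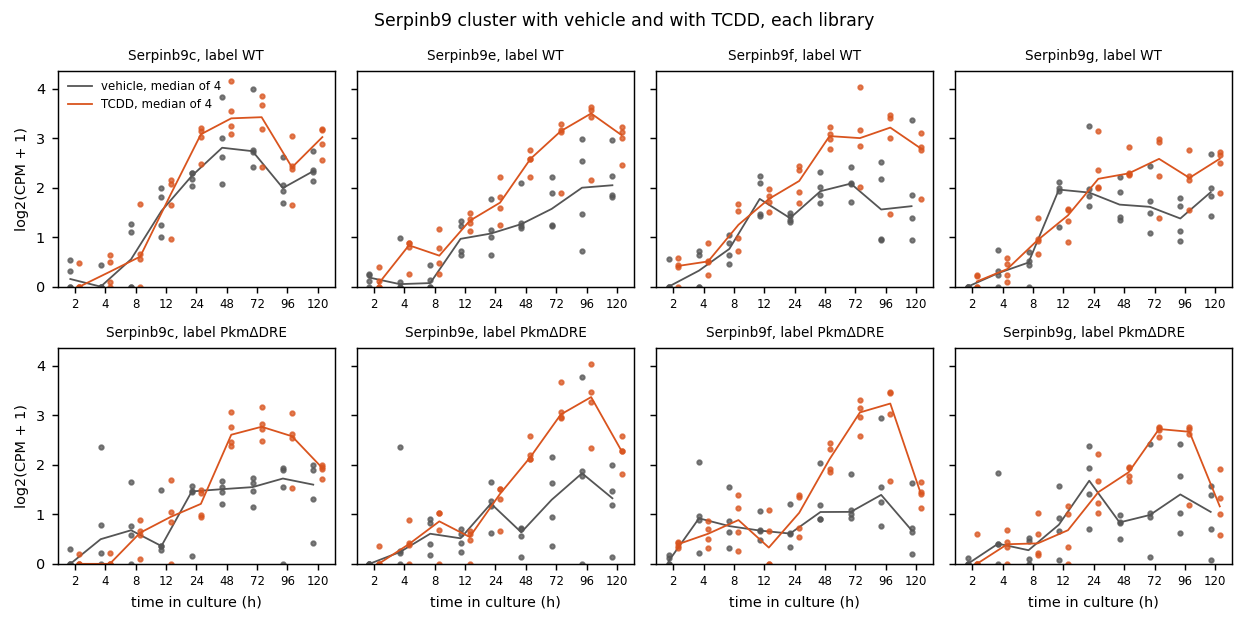
Level of 4 Serpinb9 genes, as log2(CPM + 1), against time in culture (h, evenly spaced) for libraries labelled WT (top) and PkmΔDRE (bottom); points are libraries, lines the medians of 4, grey vehicle and orange TCDD. In Serpinb9f at 72 h under the label PkmΔDRE the TCDD libraries lie at 5.01 to 8.93 CPM and the vehicle libraries at 0.910 to 2.52 CPM.

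The other 4 calls were lower with TCDD under the label WT. Serpinf2 was lower again at 24 h, at 535, 553, 449 and 557 CPM with vehicle and 331, 303, 287 and 287 with TCDD (log2 fold change -0.71 ± 0.11, adjusted p 0.0251), where 0.101% of all genes were called lower. The groups did not overlap, as in 6.34% of all genes. The call was kept in 2 of 8 fits that each left out 1 library, with log2 fold changes of -0.77 to -0.68, and was lost in 1 fit of all groups. At 96 h Serping1 was 242, 303, 174.4 and 197.5, then 178.2, 123.1, 120.8 and 115.3 (-0.72 ± 0.20, adjusted p 0.0239), Serpina1c was 68.5, 66.3, 64.2 and 73.7, then 51.7, 33.5, 31.6 and 43.9 (-0.70 ± 0.15), and Serpina1e 78.9, 144.2, 128.9 and 152.9, then 55.4, 85.5, 66.1 and 67.8 (-0.82 ± 0.19), where 5% of all genes were called lower. In Serpina1c alone of these 3 the groups did not overlap, as in 20.3% of all genes. Over the same kind of fits Serpina1c and Serpina1e kept their call in 8 of 8 and Serping1 in 4 of 8, and none of the 3 kept it in 1 fit of all groups.

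**Figure D5:**
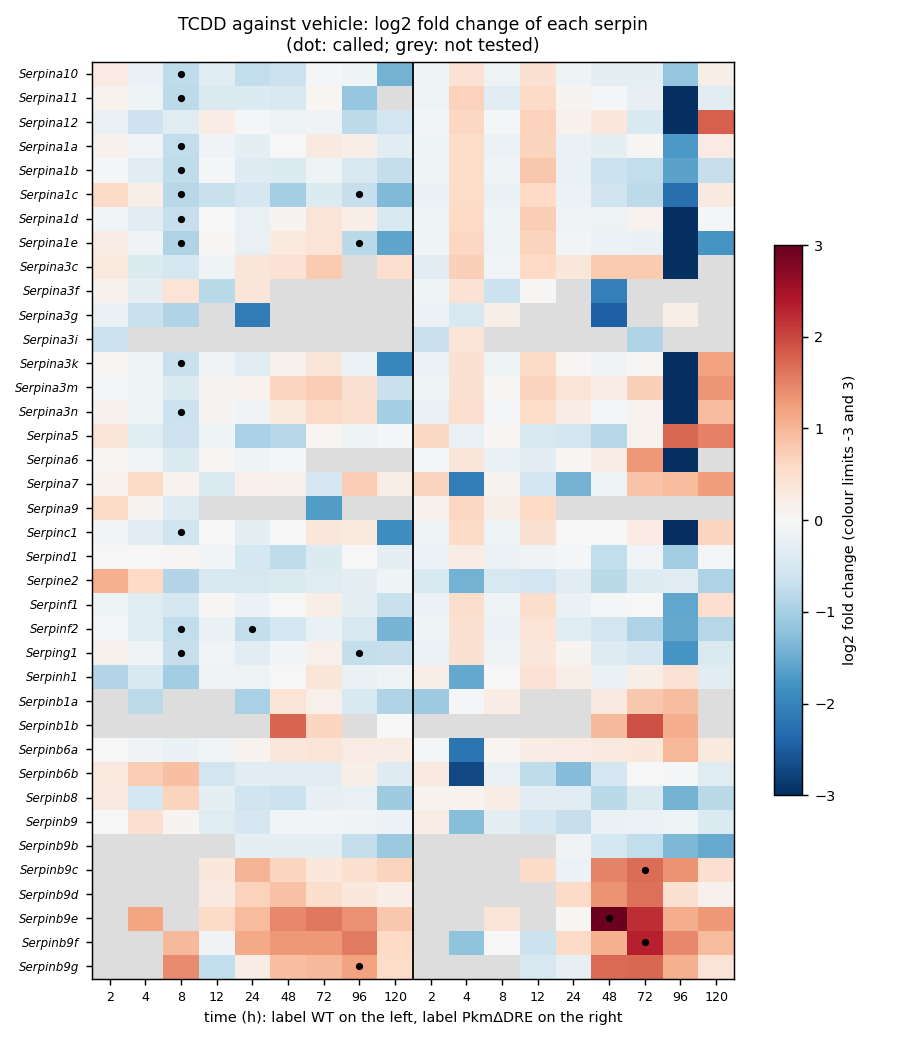
Log2 fold change of TCDD against vehicle for the 38 reported serpins (rows) at the 9 times (h) under the label WT (left) and PkmΔDRE (right), red higher and blue lower with colour limits at -3 and 3, a dot for a call and grey for not tested. Dots for lower levels gather at 8 h under the label WT (12 genes), dots for higher levels in PkmΔDRE libraries lie in Serpinb9e at 48 h and in Serpinb9c and Serpinb9f at 72 h, and the blue column at 96 h in PkmΔDRE libraries holds the vehicle library that resembled 4 h libraries.

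At the other times edgeR called no serpin with TCDD. Under the label WT this was so at 2, 4, 12, 48, 72 and 120 h, where 0, 0, 0.0321, 0.00763, 0 and 1.46% of all genes were called. Under the label PkmΔDRE it was so at 2, 4, 8, 12, 24, 96 and 120 h, where 0, 0, 0.106, 0.024, 0.016, 0.0793 and 0.633% were called. At an unadjusted p under 0.05 the numbers of serpins were 1, 1, 1, 7, 3 and 8 under the label WT and 0, 3, 0, 1, 0, 12 and 8 under the label PkmΔDRE, of 30 to 36 tested. Over all genes the shares under this limit were 1.37, 17.1, 2.63, 2.57, 2.06 and 16.1% under the label WT and 14.2, 2.4, 4.78, 9.53, 1.29, 7.2 and 7.44% under the label PkmΔDRE. DESeq2 called 1 at 48 h (Serpinb9f) and 3 at 120 h (Serpina1b, Serpina1c and Serpinf2, lower) under the label WT, 4 at 120 h under the label PkmΔDRE (Serpina3k, Serpina3m, Serpina5 and Serpine2), and 0 at the rest. Without the 2 PkmΔDRE libraries that resembled another time, 2 serpins were called at 96 h, Serpina6 higher (log2 fold change 2.86 ± 0.61, adjusted p 0.034) and Serpinb9b lower (-1.81 ± 0.34, adjusted p 0.019).

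An interaction term tested, at each time, whether TCDD acted differently under the 2 labels. Neither edgeR nor DESeq2 called a serpin at any of the 9 times, and 0 to 9 had an unadjusted p under 0.05. The 9 were at 96 h, of 35 tested, where 13.1% of all genes were under this limit. Of all genes, 0.00715% were called at 48 h and 0.00695% at 72 h, and 0 at the other times. For Serpinf2 at 8 h the difference (PkmΔDRE minus WT) was 0.44 ± 0.24 on the log2 scale (adjusted p 0.348), so that a difference of some size could not be told from none. Among the 72 vehicle libraries, with time in the model, edgeR called no serpin between the labels, where 0.571% of all genes were called, and 8 of 39 had an unadjusted p under 0.05, beside 14.1% of all genes. The closest was Serpina5 (-0.88 ± 0.25 for PkmΔDRE against WT, adjusted p 0.0591). DESeq2 called Serpina5. EdgeR called it when WT vehicle replicate 3 of 48 and 72 h was left out (adjusted p 0.0395), and Serpina3c (-0.81 ± 0.19, adjusted p 0.00957) when the 2 PkmΔDRE libraries that resembled another time were.

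The proteases that serpins control, with their cofactors and receptors, were followed as a list of 28 genes. With vehicle from 2 to 120 h, 21 of 25 tested fell and 3 rose in WT libraries, and 19 fell and 1 rose in PkmΔDRE libraries, beside the 26.9% lower and 34.2% higher (WT) and 27.9% and 33.2% (PkmΔDRE) of all genes. Plg (plasminogen), F10, F7, F2 (prothrombin) and Proc (protein C) fell by 7.09, 6.16, 4.42, 4.17 and 4.47 on the log2 scale in WT. Plat, the tissue-type activator of plasminogen, rose by 6.24 and 4.66 under the 2 labels. With TCDD at 96 h under the label WT, Plat was lower (-1.23 ± 0.19, adjusted p 0.00134), as was Plaur, the urokinase receptor (-1.02 ± 0.10). Plat was also called lower under the label PkmΔDRE at 72 h (-1.27) and 120 h (-1.73). At 8 h under the label WT, 10 of 24 fell, among them F2 (-0.78 ± 0.18), F7, F12, Proc and Hpn, and 3 rose, Klkb1 (plasma kallikrein, 1.35 ± 0.36), F9 (1.12 ± 0.20) and F11 (0.81 ± 0.19), beside 13.6% and 23.8% of all genes.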

How the data were processed

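The authors trimmed the read pairs of the unstranded libraries with Trimmomatic 0.39, aligned them to GRCm39 with STAR 2.7 and deposited raw counts of uniquely mapped pairs per gene and library, with no normalization. The 4 lines that name no gene held 16.8% to 48.0% of the pairs (median 24.2%) and were left out. Depth limits the precision of genes near 1 CPM, and intervals and bounds cover counting error only.

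Symbols and exon lengths came from GENCODE and RefSeq annotation of GRCm38, matched by gene ID for 52083 genes, and none of its coordinates was set against the counts. Levels are CPM with TMM scaling over all libraries. Genes were kept by filterByExpr (count minimum 10, total minimum 15) and tested with the robust quasi-likelihood test of edgeR 4.0.16 (R 4.3.3), each comparison on its own 8 libraries, 16 for the interaction and 72 for the labels. The study's posterior probability method was not run. P-values were adjusted by Benjamini-Hochberg over all genes tested, and a gene was called at a fold change of 1.5 or more with an adjusted p under 0.05. SE is the fold change over the root of the F statistic. The fits were tested on simulated counts. DESeq2 1.42.0, RLE scaling, no filter, 1 fit of all groups and leaving out each library were tried, and library size alone and fits without named libraries were added after seeing the data. Of the members, 1 is not reported here and enters no count or share of serpins. The members and lists were chosen with earlier results of these data known. Values were given for the 8 most abundant members, the 4 with the largest rise and the 4 with the largest fall in culture called under both labels, and all called with TCDD, and others, such as Serpinb9d, Serpinh1 and Serpind1, were chosen after their values were seen. No 2 libraries of a group were identical (216 pairs), and each pair differed beyond counting noise (lowest chi-square per gene 4.21).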

Additional observations from a re-analysis of the deposited data

Results flagged for a closer look

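Levels of the named serpins were checked in each group of 4 libraries for a library whose gap to the nearest other was too large a part of the range by Dixon's 95% limit, and 8 groups held one. Chance gives about 1 in 20 of such sets, so some or most of the 8 may be chance. WT vehicle 120 h replicate 2 was high in Serpina3k (813 CPM), Serpina3n (254), Serpinc1 (180.6) and Serpina3m (77.9), which come from 1 library and are not independent. Single libraries also stood apart for Serping1 (WT TCDD 96 h replicate 1, 178.2 CPM), Serpina1e (PkmΔDRE vehicle 120 h replicate 1, 156.6), Serpinb6b (PkmΔDRE vehicle 24 h replicate 3, 23.1) and Serpinb9f (PkmΔDRE vehicle 72 h replicate 2, 2.52).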

How the results depend on the processing

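No paired analysis was possible because the labels give no replicate number, and the numbers used here only follow the order of the records. Of 508 alternative values of the 36 named fold changes, 419 kept their call, 89 fell short of it and 0 reversed. These pool large folds in culture with the calls with TCDD, so the pooled number does not describe the latter. With 1 library left out, a call with TCDD was kept in as few as 1 of 8 fits (Serpinb9c at 72 h, PkmΔDRE). It was kept in 8 of 8 for Serpinf2 at 8 h and for Serpina1c and Serpina1e at 96 h (WT). The 17 WT calls with TCDD became 10 in 1 fit of all groups (5 of the 17 among them) and 9 with library size alone, and 7 to 20 with a library left out. The 3 PkmΔDRE calls became 10 with DESeq2, 9 with no filter, 18 in 1 fit of all groups (all lower, with none of the 3 among them) and 5 without the 2 libraries that resembled another time, and 1 to 8 with a library left out. The interaction gave 9 calls in 1 fit of all groups, at 4 and 96 h, the times with those 2 libraries, and 0 with any library left out. Between the labels DESeq2 called 1 serpin, library size alone 1, and fits without the libraries that resembled another time, those with Cyp1a1 against the label or those with high Pkm each 1, and 0 to 1 with 1 time left out. Culture calls ranged over libraries left out from 31 to 34 (WT) and 24 to 31 (PkmΔDRE) for 24 against 2 h, 19 to 25 and 12 to 17 for 120 against 24 h, and 35 to 36 and 30 to 35 for 120 against 2 h.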
